A study of Mus musculus with 18 samples.

Results

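Folliculin (Flcn), its partners Fnip1 and Fnip2, the transcription factors Tfe3 and Tfeb, and 5 genes of the mTORC1 growth pathway (Mtor, Rptor, Tsc1, Tsc2 and Ddit4) were followed in mouse embryonic stem cells (ESCs) and epiblast-like cells (EpiLCs) exposed to Δ9-tetrahydrocannabinol (Δ9-THC) or vehicle. These 10 genes are 10 of the 13104 genes measured in ESCs and of the 13717 measured in EpiLCs, and all 10 passed the filter on low counts in both cell types. They were chosen by name for their role, with their measured levels and Δ9-THC differences in these same libraries already known. Their values are therefore given as a description with no test, and no conclusion rests on them. Test results are given only for other genes.

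Folliculin with a FNIP partner acts on the Rag GTPases at the lysosome, and through them lets mTORC1 phosphorylate TFE3 and TFEB, which keeps these factors in the cytoplasm. In naive ESCs TFE3 is partly nuclear and sustains naive genes such as Esrrb, and loss of folliculin holds cells in the naive state, so the pathway is known as a gate for exit from naive pluripotency. TSC1 and TSC2 restrain the GTPase Rheb, the direct activator of mTORC1, and DDIT4, induced by hypoxia, glucocorticoids and other stress, acts through TSC to lower mTORC1 activity.

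The cells were the female BVSC ESC line, 1 clone that carries Blimp1::mVenus and Stella::ECFP reporters, kept in 2i medium with LIF and exposed there to 100 nM Δ9-THC or to ethanol vehicle. EpiLCs were derived from these ESCs with activin A, bFGF and serum replacement while the same exposure went on, so the EpiLC groups carry the exposure of the ESC stage as well. Each of the 4 groups had 3 libraries of poly(A) RNA, labelled as biological replicates, with 23427551 to 32096698 counts each. The labels do not say which cultures were started separately, so spread and p-values describe these samples only. The counts had been adjusted by the authors for batches (ComBat-seq), separately for ESCs and EpiLCs, so SDs understate the variation of untouched cultures. Levels are given as CPM, counts per library size with TMM factors, and levels of different genes are compared only per kilobase of exon (RPKM). The length joins all annotated exons of a gene, whether or not these cells use them. Ratios, shares and ranks between genes thus depend on the annotation as well as on the RNA.

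Marker genes matched the labelled cell types. The 6 naive markers (Esrrb, Klf4, Zfp42, Tfcp2l1, Nr0b1 and Tbx3) summed to between 3113 and 3323 CPM in ESC libraries, led by Tfcp2l1, and to between 98.2 and 124 CPM in EpiLC libraries, led by Zfp42. Of the 4 EpiLC markers, 3 were measured in ESCs (Dnmt3b, Otx2 and Pou3f1), where they summed to at most 88.3 CPM, and all 4, Fgf5 included, in EpiLCs, where they summed to between 1007 and 1296 CPM. Dnmt3b led this list in both. Picked out after the values were seen, Pou3f1 fell in ESCs from 3.56, 3.94 and 3.99 CPM to 2.18, 1.87 and 1.84 CPM, a log2 fold change of -0.96 ± 0.10 (edgeR quasi-likelihood, Benjamini-Hochberg adjusted p = 0.0265). The other EpiLC markers did not follow it in ESCs, with Otx2 higher in every Δ9-THC library, at 0.22 ± 0.069 (edgeR adjusted p = 0.122), and Dnmt3b at -0.042 ± 0.052 (edgeR adjusted p = 0.633). Of the naive markers 5 of 6 had a log2 fold change below 0 in ESCs and 5 of 6 above 0 in EpiLCs, and none passed. Esrrb was lower in every Δ9-THC ESC library, at -0.10 ± 0.025 (edgeR adjusted p = 0.06), and Tfcp2l1, the only 1 above 0, higher in every one, at 0.11 ± 0.025 (edgeR adjusted p = 0.0543). In EpiLCs only Tbx3 did not overlap, higher with Δ9-THC at 0.41 ± 0.13 (edgeR adjusted p = 0.237). Among all genes, 16.7% lay higher and 15.9% lower without overlap in ESCs, and 11.2% and 10.6% in EpiLCs. A log2 fold change below 0 was found for 48.9% of all genes in ESCs and 49.3% in EpiLCs. With offsets for GC content and length 0 genes of the ESC table passed, Pou3f1 included, and at most 1 gene passed when any 1 ESC library was left out, beside 906 with all 6. Markers of other cells that a culture could hold (endoderm, mesendoderm, trophectoderm and 2-cell-like cells) were measured for 5 of 10 genes in ESCs and 4 of 10 in EpiLCs, and none of the measured ones was at 0. Their sum was 18.8, 16.4 and 17.0 CPM in vehicle ESC libraries and 20.1, 23.3 and 22.5 CPM in Δ9-THC ESC libraries, with Eomes the most abundant, and from 10.4 to 13.4 CPM over the 6 EpiLC libraries. The ESC sums did not overlap between exposures, and their part in the ESC differences given here was not tested. In these bulk samples, fewer cells of a kind and less RNA per cell cannot be told apart.

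Flcn, the folliculin gene (ENSMUSG00000032633, minus strand of chromosome 11 from 59791408 to 59810016 in the GRCm38 annotation), had nearly the same level in all 4 groups. Its level in vehicle ESC libraries was 42.9, 36.9 and 37.7 CPM, and in Δ9-THC ESC libraries 35.2, 41.2 and 40.6 CPM. In EpiLCs, vehicle libraries held 42.4, 37.5 and 41.9 CPM and Δ9-THC libraries 39.0, 44.5 and 39.9 CPM. All exposures overlapped, with a log2 fold change of Δ9-THC over vehicle of -0.0060 ± 0.082 (SE, 3 libraries per group) in ESCs and 0.019 ± 0.081 in EpiLCs. Without vehicle or without Δ9-THC replicate 1 the ESC value changes sign, and so does the EpiLC value without either replicate 2. The ESC value also changes sign with the offsets for GC content and length.

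Fnip1 (ENSMUSG00000035992, plus strand of chromosome 11, 54438199 to 54518235), a partner of folliculin that also binds AMPK, was the member with the largest log2 fold change in EpiLCs. Vehicle EpiLC libraries held 30.3, 29.8 and 29.6 CPM, and Δ9-THC EpiLC libraries 39.8, 41.0 and 41.0 CPM. Every Δ9-THC library was above every vehicle library, with a log2 fold change of 0.44 ± 0.053 (SE, 3 libraries per group). In ESCs, the vehicle libraries held 76.0, 69.2 and 63.8 CPM and the Δ9-THC libraries 70.0, 77.6 and 83.7 CPM, which overlap, with a log2 fold change of 0.15 ± 0.085. This ESC value changes sign with the offsets for GC content and length. The vehicle level of Fnip1 was 2.33 times as high in ESCs as in EpiLCs, and no ESC library overlapped any EpiLC library, a comparison across tables that were adjusted separately and so were not tested against each other. Of the 12410 genes in both tables, 21.7% had a vehicle ratio between the cell types above 2 or below 0.5.

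Fnip2 (ENSMUSG00000061175, minus strand of chromosome 3, 79455974 to 79567796), the other folliculin partner, lay closer together in the 4 groups. Vehicle ESC libraries held 79.2, 67.0 and 71.7 CPM and Δ9-THC ESC libraries 71.8, 84.8 and 80.3 CPM. The EpiLC levels were 49.6, 60.8 and 56.7 CPM in vehicle and 74.8, 60.4 and 66.3 CPM in Δ9-THC libraries. Exposures overlapped in both cell types, in EpiLCs only by the Δ9-THC replicate 2 library, which lay just under vehicle replicate 2. The log2 fold change was 0.12 ± 0.081 in ESCs and 0.27 ± 0.11 in EpiLCs (SE, 3 libraries per group). Per length, Fnip1 stood at 1.13 ± 0.0852 times Fnip2 (SD, n = 3) in vehicle ESC libraries and 0.636 ± 0.0736 times in vehicle EpiLC libraries. With Δ9-THC this ratio was 1.15 ± 0.0755 in ESCs and 0.716 ± 0.0871 in EpiLCs, and the libraries of the exposures overlapped in both cell types. Flcn over Fnip2 did not overlap in ESCs, from 1.02 to 1.07 with vehicle and from 0.940 to 0.979 with Δ9-THC. In EpiLCs it overlapped, from 1.19 to 1.65 with vehicle and from 1.01 to 1.43 with Δ9-THC. How often ratios of 2 genes separate between exposures was not computed, so nothing is read from this.

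Tfe3 (ENSMUSG00000000134, X chromosome, plus strand, 7762560 to 7775202), the factor that folliculin keeps out of the nucleus, was level across the cell types. Its vehicle ESC libraries held 110.4, 126 and 118 CPM and its Δ9-THC ESC libraries 113, 98.5 and 107 CPM. EpiLC vehicle libraries held 106, 113 and 107 CPM and EpiLC Δ9-THC libraries 105, 99.1 and 105 CPM. Exposures overlapped in ESCs, where the log2 fold change was -0.16 ± 0.066, and did not in EpiLCs, where it was -0.080 ± 0.058 (SE, 3 libraries per group) and the closest libraries of the 2 groups differed by under 1 CPM. Measured as RNA, these values say nothing about where the protein lay.

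Tfeb (ENSMUSG00000023990, chromosome 17, plus strand, 47737030 to 47792419), a related factor that drives lysosomal genes, was lowest of the 10 in EpiLCs. ESC libraries held 36.7, 37.3 and 37.3 CPM with vehicle and 32.5, 32 and 32.2 CPM with Δ9-THC. EpiLC libraries held 5.87, 7.04 and 7.04 CPM with vehicle and 7.25, 6.10 and 6.17 CPM with Δ9-THC. The 3 ESC libraries of each exposure were close to each other and apart from the other exposure, with a log2 fold change of -0.20 ± 0.031, while EpiLC exposures overlapped, with -0.031 ± 0.12 (SE, 3 libraries per group). The ESC value changes sign with the offsets for GC content and length, to 0.013. As few as 155 counts lie behind an EpiLC value, a counting error of 8.03%, and the sign of the EpiLC value changes without replicate 2 or replicate 3 of either exposure. Vehicle ESCs had 5.58 times the Tfeb level of vehicle EpiLCs, again across separately adjusted tables with no test. A difference beyond 2-fold was shared by 21.7% of the genes in both tables.

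Levels of the factors of this family can be set side by side within each library. Per length, Tfe3 was 1.95 ± 0.112 times Tfeb (SD, n = 3) in vehicle ESC libraries and 10.1 ± 0.887 times in vehicle EpiLC libraries. With Δ9-THC this ratio was 2.01 ± 0.122 in ESCs and 9.74 ± 0.776 in EpiLCs, and exposures overlapped in both. Mitf, the third factor of the family that was measured, had 6.40 RPKM in vehicle ESCs and 0.235 RPKM in vehicle EpiLCs. Tfe3 made up 49.6% ± 1.77 of the summed RPKM of Tfe3, Tfeb and Mitf in vehicle ESC libraries and 89.3% ± 1.07 in vehicle EpiLC libraries. These shares are levels within a library and depend on the annotated exon lengths. The 2 tables were adjusted separately and the difference was not tested.

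Mtor (ENSMUSG00000028991, chromosome 4, plus strand, 148448611 to 148557683) encodes the kinase of the pathway. Its ESC libraries held 122, 124 and 121 CPM with vehicle and 117, 116 and 119 CPM with Δ9-THC, and its EpiLC libraries 79.5, 86.6 and 76.0 CPM with vehicle and 83.6, 76.7 and 87.4 CPM with Δ9-THC. The ESC exposures did not overlap but lay within a few CPM, with a log2 fold change of -0.056 ± 0.026 that also changes sign with the offsets for GC content and length, and the EpiLC exposures overlapped, with 0.032 ± 0.078 (SE, 3 libraries per group), a value that changes sign with these offsets and without replicate 3 of either exposure. Rptor (ENSMUSG00000025583, chromosome 11, plus strand, 119602905 to 119899576) encodes raptor, the scaffold that presents substrates to the kinase. It was at 84.7, 83.1 and 79.8 CPM in vehicle ESC libraries and 71.8, 73.4 and 76.7 CPM in Δ9-THC ESC libraries. EpiLC libraries held 54.2, 58.4 and 52.8 CPM with vehicle and 61.9, 57.7 and 63.7 CPM with Δ9-THC. Every Δ9-THC ESC library was below every vehicle ESC library for Rptor, a log2 fold change of -0.16 ± 0.038, and the EpiLC exposures overlapped, with 0.15 ± 0.068 (SE, 3 libraries per group). Per length, Mtor was 1.97 ± 0.0502 times Rptor in vehicle ESC libraries and 1.95 ± 0.0300 times in vehicle EpiLC libraries (SD, n = 3). With Δ9-THC it was 2.12 ± 0.0549 times in ESCs and 1.80 ± 0.0289 times in EpiLCs, above every vehicle library in ESCs and below every vehicle library in EpiLCs. Among single genes, 16.7% lay higher and 15.9% lower in this way in ESCs, and 11.2% and 10.6% in EpiLCs. The share among ratios of 2 genes was not computed, so nothing is read from this separation. The vehicle level was 1.51 times as high in ESCs as in EpiLCs for Mtor and 1.5 times for Rptor, across the separately adjusted tables and with no test.

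Tsc1 (ENSMUSG00000026812, chromosome 2, plus strand, 28641228 to 28691167) and Tsc2 (ENSMUSG00000002496, chromosome 17, minus strand, 24595816 to 24632630) encode the scaffold and the GTPase-activating subunit of the complex that turns Rheb off. For Tsc1 the ESC libraries held 45.7, 44.5 and 42.7 CPM with vehicle and 41.9, 43.2 and 45.2 CPM with Δ9-THC, which overlap. Its EpiLC libraries were more spread, at 41.0, 36.9 and 50.7 CPM with vehicle and 52.8, 58.3 and 42.5 CPM with Δ9-THC, and overlapped too. The log2 fold change of Tsc1 was -0.030 ± 0.043 in ESCs and 0.26 ± 0.16 in EpiLCs (SE, 3 libraries per group). Its ESC value changes sign with the offsets for GC content and length. Tsc2 libraries held 126, 136 and 127 CPM in vehicle ESCs, 123, 114 and 123 CPM in Δ9-THC ESCs, 81.3, 92.0 and 86.9 CPM in vehicle EpiLCs and 90.0, 79.5 and 84.9 CPM in Δ9-THC EpiLCs. Its exposures did not overlap in ESCs, with a log2 fold change of -0.11 ± 0.046, and overlapped in EpiLCs, with -0.032 ± 0.075 (SE, 3 libraries per group), which changes sign without vehicle replicate 2. Of the exonic bases of Tsc2, 7.2% are shared with Pkd1 on the other strand. The authors counted without strand in union mode, which assigns reads over exons of 2 genes to neither. Per length, Tsc2 was 3.60 ± 0.186 times Tsc1 in vehicle ESC libraries and 2.54 ± 0.486 times in vehicle EpiLC libraries (SD, n = 3). With Δ9-THC this ratio was 3.41 ± 0.189 in ESCs and 2.08 ± 0.389 in EpiLCs, and exposures overlapped in both.

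Ddit4 (ENSMUSG00000020108, chromosome 10, minus strand, 59949669 to 59951834) was the most abundant member per length in every group. Vehicle EpiLC libraries held 539, 543 and 477 CPM and Δ9-THC EpiLC libraries 407, 408 and 458 CPM. Every Δ9-THC EpiLC library was below every vehicle EpiLC library, with a log2 fold change of -0.29 ± 0.085. ESC libraries held 122, 88.6 and 94.8 CPM with vehicle and 87.0, 119.6 and 114 CPM with Δ9-THC, which overlap, with a log2 fold change of 0.069 ± 0.16 that changes sign without either replicate 2 library (SE, 3 libraries per group). Vehicle EpiLCs had 5.09 times the Ddit4 level of vehicle ESCs, the reverse of the direction seen for Tfeb and Fnip1, across separately adjusted tables with no test. Here too, 21.7% of the genes in both tables differed beyond 2-fold.

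**Figure D1:**
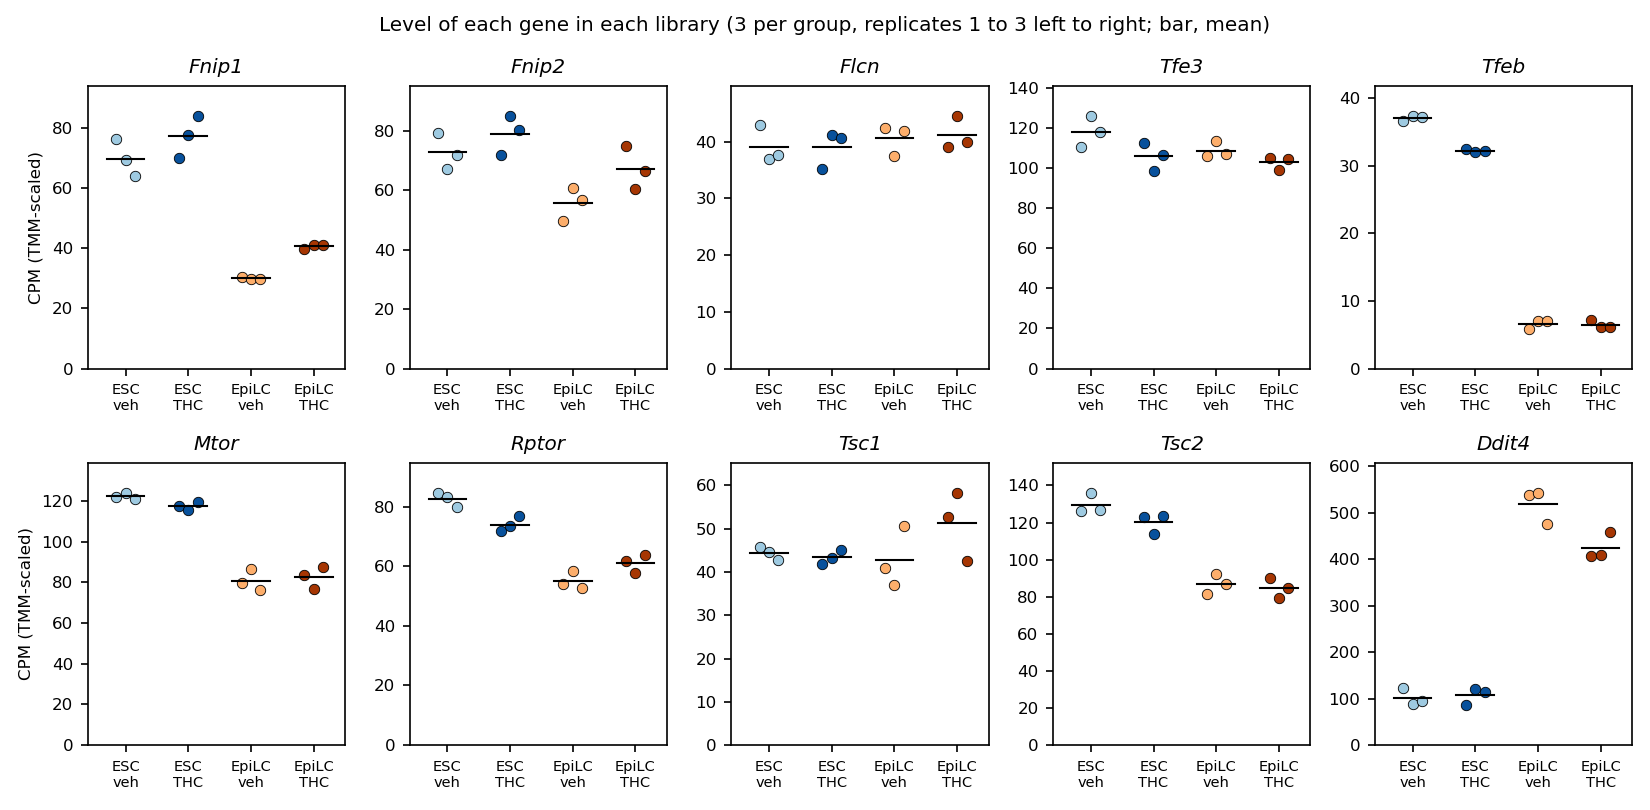
Level of each of the 10 genes in CPM (vertical axis, from 0, TMM-scaled libraries) in vehicle (veh) and Δ9-THC libraries of ESCs and EpiLCs; points are the 3 libraries of a group and bars their mean. Tfeb and Fnip1 are lower and Ddit4 higher in EpiLC than in ESC libraries, and the ranges of Flcn and of Tfe3 overlap between the cell types.

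Ordered by vehicle RPKM, the ESC levels ran from Ddit4 (58.1 ± 10.3, SD, n = 3) through Tsc2 (13.5 ± 0.574), Tfe3 (12.8 ± 0.840) and Mtor (12.1 ± 0.161) to Fnip1 (9.79 ± 0.864), Flcn (9.06 ± 0.757) and Fnip2 (8.69 ± 0.739). Tfeb (6.54 ± 0.0642), Rptor (6.13 ± 0.183) and Tsc1 (3.75 ± 0.126) were below them. Tsc2, Tfe3 and Mtor overlapped with their neighbours in this order, and so did Fnip1, Flcn and Fnip2. The vehicle EpiLC order was Ddit4 (296 ± 21.2), Tfe3 (11.8 ± 0.426), Flcn (9.40 ± 0.620), Tsc2 (9.02 ± 0.561), Mtor (7.99 ± 0.533), Fnip2 (6.66 ± 0.676), Fnip1 (4.20 ± 0.0544), Rptor (4.09 ± 0.215), Tsc1 (3.62 ± 0.597) and Tfeb (1.17 ± 0.119). There Tsc2 overlapped with Flcn and with Mtor, and Rptor with Fnip1 and with Tsc1. The median gene had 5.41 RPKM in vehicle ESCs and 4.68 RPKM in vehicle EpiLCs.

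Over the set, 7 of 10 log2 fold changes were below 0 in ESCs and 4 of 10 in EpiLCs, with medians of -0.043 and 0.026, beside medians over all genes of 0.0041 and 0.0030. With offsets for GC content and length the ESC tally turned, with 4 of 10 below 0 and a median of 0.015, and 5 of 10 were below 0 in EpiLCs. In ESCs, 4 members (Tfeb, Mtor, Rptor and Tsc2) lay lower in every Δ9-THC library than in every vehicle library and 0 lay higher, where 15.9% of all genes lay lower and 16.7% higher in this way. In EpiLCs, 1 (Fnip1) lay higher and 2 (Tfe3 and Ddit4) lower, where 11.2% and 10.6% of all genes did. Nothing is read from these counts, since the members were picked with these values known.

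Base composition moved with the ESC values. Over 13083 genes whose GC content is known, GC-rich genes had the lower ESC log2 fold changes (Spearman rho -0.54, a correlation over genes and not over independent samples), and rho was -0.30 over 13696 genes in EpiLCs. Fnip1, with 38.9% GC in its longest transcript, is among the most GC-poor genes measured in ESCs (percentile 4.05), and Tfeb, with 63.2%, among the most GC-rich (percentile 99.2). With offsets that remove each library's trend with GC content and exon length, the ESC log2 fold change of Fnip1 was -0.0057 ± 0.046, of Tfeb 0.013 ± 0.036, of Mtor 0.027 ± 0.025, of Tsc1 0.017 ± 0.037, of Rptor -0.049 ± 0.028 and of Tsc2 -0.021 ± 0.048 (SE). Tfe3 moved from -0.16 to -0.10 ± 0.065 and Fnip2 was at 0.13 ± 0.083, while Flcn was at 0.070 ± 0.078 and Ddit4 at 0.17 ± 0.16. In EpiLCs the values with offsets were 0.31 ± 0.065 for Fnip1, 0.19 ± 0.091 for Fnip2, 0.065 ± 0.078 for Flcn, -0.15 ± 0.046 for Tfe3 and -0.027 ± 0.10 for Tfeb. They were -0.022 ± 0.072 for Mtor, 0.082 ± 0.069 for Rptor, 0.16 ± 0.16 for Tsc1, -0.077 ± 0.058 for Tsc2 and -0.19 ± 0.14 for Ddit4. Fnip1, Fnip2, Tfeb, Mtor, Rptor, Tsc1 and Ddit4 thus lay closer to 0 with the offsets in EpiLCs, and Flcn, Tfe3 and Tsc2 further from it. Of these, Tfeb hardly moved and Mtor changed sign. The EpiLC median over all genes moved as well, from 0.0030 without the offsets to -0.016 with them.

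**Figure D2:**
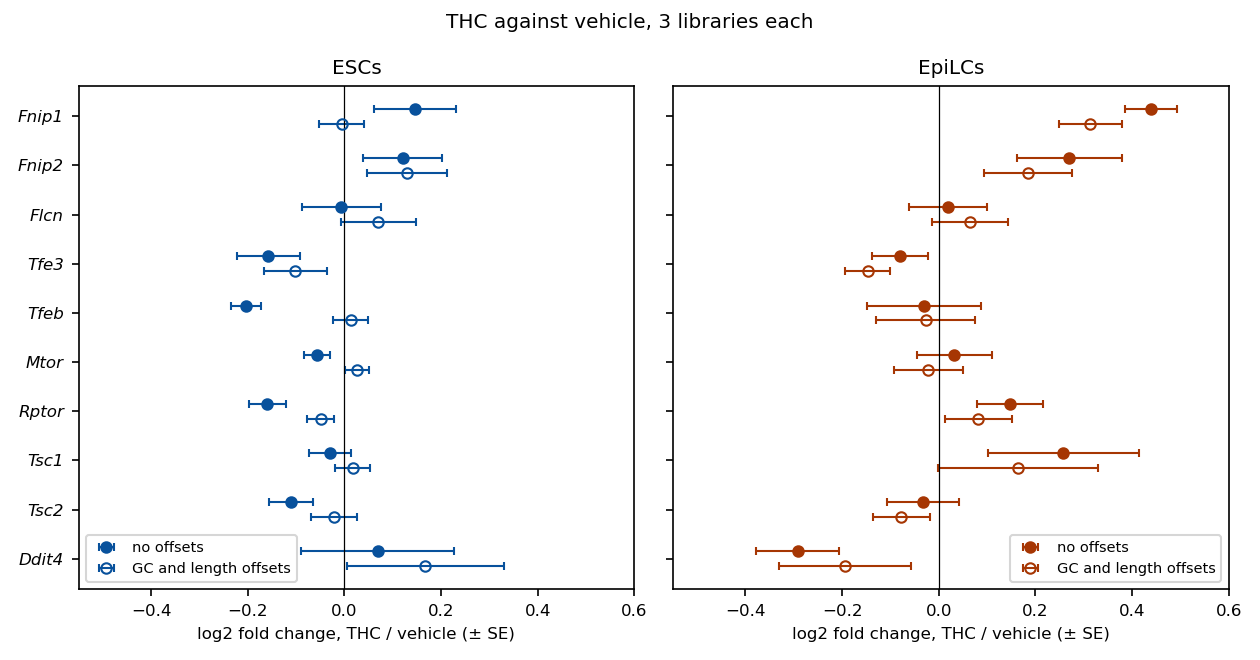
Log2 fold change of Δ9-THC over vehicle (horizontal axis, ± SE, 3 libraries per group) of the 10 genes in ESCs and EpiLCs, without (filled) and with (open) offsets for GC content and length. In ESCs the Tfeb value is -0.20 without and 0.013 with offsets; in EpiLCs the Fnip1 value is 0.44 without and 0.31 with them.

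The rest of the pathway was followed through 7 lists that hold 123 other genes, of which 120 were measured in each cell type. In ESCs 7 of these 120 genes (5.83%) were past the edgeR threshold (quasi-likelihood, Benjamini-Hochberg), 3 higher and 4 lower with Δ9-THC, beside 6.91% of all genes. At an unadjusted p under 0.05 there were 39, beside 28.7% of all genes. Counts of single lists at this cut are to be read beside this share in ESCs and beside 15.1% of all genes in EpiLCs. DESeq2 passed 6 (beside 5.79% of all genes), of which 3 (Bmt2, Eif4e and Gaa) were among the 7 and 3 (Seh1l, Sesn2 and Ulk1) were not. The call rests on the full set of libraries as adjusted: it was 0 when any of the 6 libraries was left out, 0 with the offsets for GC content and length, and 0 with the replicate number as a block. After the authors' adjustment, vehicle and Δ9-THC libraries of the same number deviate from their group means in opposite directions, so the 6 libraries vary less independently than the test without the block assumes.

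Among the Rag GTPases, the Ragulator subunits that hold them on the lysosome and the lysosomal arginine sensor Slc38a9, 8 of 10 genes had a log2 fold change above 0 in ESCs (median 0.10; 6 of 10 and 0.041 with the offsets), and 0 passed the test by edgeR or DESeq2, with 3 at an unadjusted p under 0.05. Slc38a9 had the largest value, 0.29 ± 0.065 (edgeR adjusted p = 0.0504), and Lamtor2 the smallest, -0.20 ± 0.096 (edgeR adjusted p = 0.221). Rraga was at 0.0062 ± 0.049 (edgeR adjusted p = 0.953). With 40.6 RPKM in vehicle ESCs it was the most abundant of them per length, level with Lamtor5 at 40.6 RPKM. In Δ9-THC ESCs Lamtor5 had 44.2 and Rraga 40.8 RPKM. In EpiLCs, 5 of 10 were above 0 (median 0.0019), and 4 of 10 with the offsets (median -0.010, beside -0.016 over all genes). There 0 passed by edgeR, by DESeq2 or at an unadjusted p under 0.05, between Lamtor4 at -0.22 ± 0.11 (edgeR adjusted p = 0.41) and Rragb at 0.20 ± 0.085 (edgeR adjusted p = 0.34), with Rraga at -0.099 ± 0.10 (edgeR adjusted p = 0.687).

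GATOR1, GATOR2, KICSTOR and the cytosolic amino acid sensors relay amino acid supply to the Rag GTPases, and 2 of their 18 genes passed the test in ESCs. Bmt2, which encodes the S-adenosylmethionine sensor SAMTOR, rose from 29.0, 27.0 and 25.5 CPM in vehicle libraries to 32.6, 35.2 and 37.3 CPM in Δ9-THC libraries, a log2 fold change of 0.37 ± 0.067 (edgeR adjusted p = 0.0363). Castor2, a relative of the arginine sensor Castor1, fell from 10.5, 11.3 and 11.1 CPM to 9.22, 8.50 and 8.72 CPM, a log2 fold change of -0.32 ± 0.059 (edgeR adjusted p = 0.037). The list's median was -0.024, with 7 of 18 above 0 (-0.0073 and 8 of 18 with the offsets), and Seh1l, its most abundant gene per length, was at 0.17 ± 0.039 (edgeR adjusted p = 0.0542). DESeq2 passed 3 of the 18 in ESCs, Bmt2, Seh1l (DESeq2 adjusted p = 0.0366) and the leucine sensor Sesn2, at -0.27 ± 0.071 (DESeq2 adjusted p = 0.00969). In EpiLCs 0 of 18 passed (edgeR, and 0 by DESeq2, with 1 at an unadjusted p under 0.05). The median was 0.021, with 11 of 18 above 0 (-0.014 and 8 of 18 with the offsets, where the median over all genes was -0.016). Values ran from Castor1 at -0.19 ± 0.14 (edgeR adjusted p = 0.571) to Bmt2 at 0.25 ± 0.085 (edgeR adjusted p = 0.263), with Seh1l at 0.017 ± 0.11 (edgeR adjusted p = 0.958).

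Of the other mTORC1 and mTORC2 subunits and assembly factors, 0 of 10 passed edgeR or DESeq2 in either cell type, with 1 at an unadjusted p under 0.05 in ESCs and 2 in EpiLCs. In ESCs the median was 0.0022, from Tti1, an assembly factor and the most abundant per length, at -0.090 ± 0.028 (edgeR adjusted p = 0.0973) to Mlst8, a subunit of both complexes, at 0.21 ± 0.090 (edgeR adjusted p = 0.18). In EpiLCs the median was 0.044, and -0.0035 with the offsets, beside -0.016 over all genes with them. Values ran from Akt1s1, which encodes the mTORC1 inhibitor PRAS40, at -0.18 ± 0.066 (edgeR adjusted p = 0.283) to the mTORC2 partner Prr5l at 0.37 ± 0.17 (edgeR adjusted p = 0.378). Akt1s1 was the most abundant per length in vehicle EpiLCs, but not with Δ9-THC.

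Rheb and the kinases and phosphatases upstream of TSC had 2 of 24 measured genes past the test in ESCs, 12 above and 12 below 0, with a median of -0.0021 (15 above 0 and 0.010 with the offsets), and DESeq2 passed 0 of the 24. Rheb, the GTPase that TSC turns off, rose from 91.0, 90.0 and 89.3 CPM to 98.6, 100.0 and 101 CPM, a log2 fold change of 0.15 ± 0.026 (edgeR adjusted p = 0.0327). Akt2, a kinase that inhibits TSC, fell from 89.4, 91.2 and 92.3 CPM to 83.5, 82.0 and 81.5 CPM, a log2 fold change of -0.14 ± 0.028 (edgeR adjusted p = 0.0388). Stk11, which encodes the AMPK-activating kinase LKB1, was at -0.071 ± 0.033 (edgeR adjusted p = 0.208). It was the most abundant of the list per length in vehicle ESCs, but not with Δ9-THC. In EpiLCs 0 of 24 passed edgeR or DESeq2, with 3 at an unadjusted p under 0.05. The median was 0.014 (-0.018 with the offsets, beside -0.016 over all genes). Values ran from the TSC subunit Tbc1d7 at -0.24 ± 0.070 (edgeR adjusted p = 0.214) to the AMPK subunit Prkaa2 at 0.37 ± 0.21 (edgeR adjusted p = 0.457), with Stk11 at -0.11 ± 0.12 (edgeR adjusted p = 0.716).

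Substrates and effectors of mTORC1 had 1 of 16 measured genes past the test in ESCs. Eif4e, the cap-binding translation factor, rose from 205, 199.6 and 209.6 CPM to 230.0, 237 and 227 CPM, a log2 fold change of 0.18 ± 0.031 (edgeR adjusted p = 0.0331), while the list's median was -0.019 and 11 of 16 were below 0. With the offsets 8 of 16 were below 0 and the median was -0.00058. DESeq2 passed 2 of the 16, Eif4e and Ulk1, the latter at -0.16 ± 0.051 (DESeq2 adjusted p = 0.0305). Rps6, a ribosomal protein and the most abundant gene of the list per length, was at -0.072 ± 0.065 (edgeR adjusted p = 0.506). In EpiLCs 0 of 16 passed edgeR, 3 had an unadjusted p under 0.05 and DESeq2 passed 1 (Lpin1; median -0.022), with Ulk2, an autophagy kinase, highest at 0.47 ± 0.078 (edgeR adjusted p = 0.144) and Rps6 lowest at -0.18 ± 0.084 (edgeR adjusted p = 0.366). Mitf, the other measured factor of the Tfe3 family, was at 0.10 ± 0.059 in ESCs (edgeR adjusted p = 0.31) and 0.096 ± 0.26 in EpiLCs (edgeR adjusted p = 0.894).

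Lysosomal and autophagy genes of the CLEAR network, known targets of TFEB and TFE3, had 31 of 42 log2 fold changes below 0 in ESCs and a median of -0.065, beside 48.9% below 0 and a median of 0.0041 over all genes. At an unadjusted p under 0.05 there were 19 of 42 (beside 28.7% of all genes). By edgeR 2 passed the test (4.76%, beside 6.91% of all genes), of which DESeq2 passed 1 (Gaa). Gusb, which encodes the lysosomal enzyme beta-glucuronidase, fell from 40.5, 41.2 and 41.7 CPM to 36.4, 36.0 and 35.7 CPM, a log2 fold change of -0.19 ± 0.031 (edgeR adjusted p = 0.0304). Gaa, which encodes the enzyme that breaks down lysosomal glycogen, fell from 66.4, 69.8 and 63.7 CPM to 54.4, 51.7 and 57.0 CPM, a log2 fold change of -0.29 ± 0.051 (edgeR adjusted p = 0.0327). With the offsets for GC content and length 30 of 42 were below 0, the median was -0.045 and 0 passed. Lamp1, a lysosomal membrane protein gene and the most abundant per length, was at 0.022 ± 0.024 (edgeR adjusted p = 0.587). In EpiLCs 22 of 42 were below 0 (median -0.019), 0 passed edgeR, 6 had an unadjusted p under 0.05 and DESeq2 passed 1 (Lamp2), from the protease gene Ctsf at -0.23 ± 0.079 (edgeR adjusted p = 0.255) to the autophagy gene Wipi1 at 0.45 ± 0.16 (edgeR adjusted p = 0.266), and Psap, the most abundant per length, was at -0.14 ± 0.077 (edgeR adjusted p = 0.455).

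**Figure D3:**
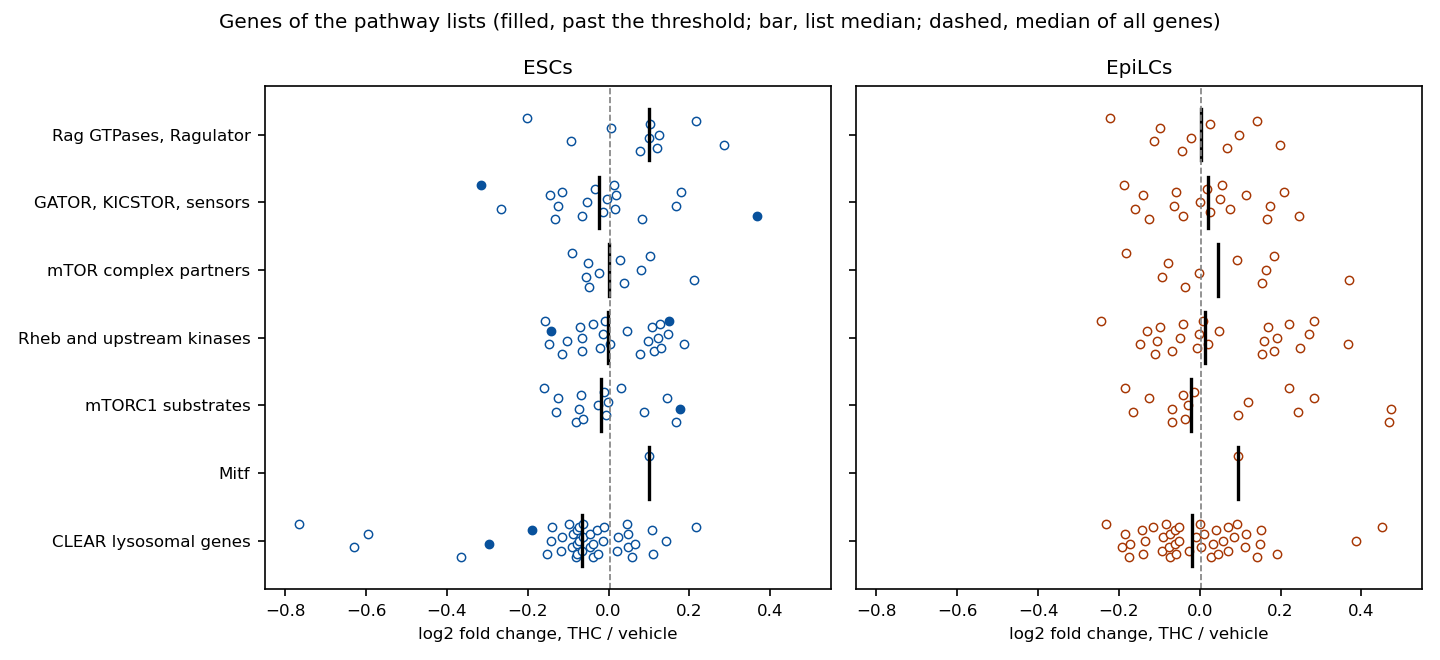
Log2 fold change of Δ9-THC over vehicle (horizontal axis) of each measured gene of the 7 pathway lists in ESCs and EpiLCs; bars are list medians, the dashed line is the median of all genes and filled points are genes past the edgeR threshold. The CLEAR list has its median at -0.065 in ESCs, and the 7 filled points are all in ESCs.

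Over the 120 pathway genes in EpiLCs, 0 passed edgeR's test (beside 0.00% of all genes), 15 had an unadjusted p under 0.05 (beside 15.1% of all genes), and DESeq2 passed 2, Lamp2 and Lpin1 (beside 0.634% of all genes). Whether Δ9-THC acted differently in EpiLCs and ESCs was tested on the difference of the 2 effects over the 12 libraries. By edgeR 0 of the 120 pathway genes differed, beside 0.0322% of the 12410 genes in both tables. At an unadjusted p under 0.05 there were 17 (beside 13.7% of all genes), and DESeq2 passed 2, Lpin1 and Ulk1 (beside 1.07% of all genes). For the members this difference, EpiLC minus ESC, is given with no test, and ran from -0.35 ± 0.19 for Ddit4 to 0.32 ± 0.081 for Rptor (log2, SE), with Fnip1 at 0.31 ± 0.11 and Flcn at 0.041 ± 0.12.

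The genes with the most similar profiles were found by the smallest root mean square distance of log2 CPM, each gene centred on its own mean, over the 12 libraries and the 12409 other genes in both tables. For Flcn they were Mxi1 (0.0510), Aurkb (0.0622) and Uspl1 (0.0624), and for Tfe3 Susd6 (0.0393), Yars (0.0475) and Tecpr2 (0.0492), where the median gene was at 0.300 and 0.299. For Fnip1 they were Nhsl1 (0.0706), Fryl (0.0860) and Abcb1b (0.0872), with a median gene at 0.594, and for Fnip2 Ralgapa2 (0.0595), Luzp1 (0.0687) and Xpr1 (0.0694), with a median gene at 0.344. By this measure Flcn was at 0.592 from Fnip1, further than its median gene. It was at 0.255 from Fnip2 and 0.178 from Tfe3, nearer than its median gene. Tfe3 was at 1.16 from Tfeb, and Mtor and Rptor were at 0.0873. Distances over the 12 libraries include the step in level between the separately adjusted cell types, so they do not measure a shared response to Δ9-THC.

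TFEB and TFE3 bind the E-box CACGTG, best within TCACGTGA, so the RefSeq promoters (GRCm38.p6, a short window around each start) were searched for both. All 10 genes had a promoter, 13 in all, and 1 of these 13 (7.69%), that of Fnip1, held CACGTG, beside 7.15% of all 32851 promoters. The longer motif, which contains the first, was in 0 of the 13 and in 0.974% of all promoters. Of 37 promoters of the CLEAR list, matched for 34 genes, 40.5% held CACGTG and 24.3% TCACGTGA. That list was drawn up from known targets of these factors, so its share is no result of these data. The Fnip1 stretch is shown because it is the only match among the members; the capitals mark the motif, which starts 75 bases before the start site, on the plus strand at chr11:54438077-54438136.
Fnip1: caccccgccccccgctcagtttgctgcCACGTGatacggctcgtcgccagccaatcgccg
A match describes these letters in this window and is not a measured binding site.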

How the data were processed

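RNA-seq libraries of ESCs and EpiLCs were analysed; PGCLC libraries were not analysed here. Per the labels and methods, the authors aligned reads with STAR to a genome named both mm10 and GRCm39, counted exons per gene with HTSeq without strand, removed genes with 10 or fewer counts and adjusted the rest with ComBat-seq. The deposited values are whole-number counts of each cell type, adjusted separately. The batches were not named, and libraries came from either of 2 preparation kits, not given per library. Gene symbols, lengths, coordinates and GC content came from GENCODE (GRCm38), matched by gene ID.

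Each table was fitted whole with edgeR 4.0.16 (R 4.3.3, limma 3.58.1; TMM, glmQLFit, glmQLFTest, two-sided, over 10 total counts, Benjamini-Hochberg over all genes, threshold 0.05), after a test on simulated data. SE is the log2 fold change over the square root of F. RPKM divides CPM by the joined length of all annotated exons of the gene. Alternatives were RLE factors, other filters, DESeq2 1.42.0, the replicate block, offsets for GC content and length (splines, 5 degrees of freedom), each library left out and all 12 libraries together. A check for duplicates found the counts of every pair of libraries of the same cell type further apart than sampling noise (chi-squared per degree of freedom 4.60 or more).

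The members and lists were chosen with earlier results of these data known. Named are all members and the 3 nearest profiles of Flcn, Fnip1, Fnip2 and Tfe3 (prior count 2). Per list and cell type, up to 6 genes past the threshold are named by size or, with none, the largest and smallest log2 fold change. The most abundant gene per length in vehicle libraries is named as well, with Lamtor5 as level with Rraga. Pathway genes that passed only in an alternative, such as DESeq2 or RLE factors, are named too. Protein sequences were not used here. Figures were drawn with matplotlib 3.10.9. A result of 1 pathway gene is withheld and not reported here.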

Additional observations from a re-analysis of the deposited data

Results flagged for a closer look

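In Lpin1 and Ulk1 every Δ9-THC library lay below every vehicle library in ESCs and above every vehicle library in EpiLCs, a pattern that 134 of the 12410 genes in both tables (1.08%) share. They were picked out for this pattern, so it is no evidence about them. For Lpin1, which encodes a lipid phosphatase that mTORC1 phosphorylates, ESC libraries held 60.2, 60.1 and 60.9 CPM with vehicle and 57.1, 57.4 and 56.9 CPM with Δ9-THC, and EpiLC libraries 50.4, 54.0 and 59.4 CPM with vehicle and 80.9, 76.5 and 69.1 CPM with Δ9-THC. Its difference in log2 fold change, EpiLC minus ESC, was 0.57 ± 0.098 (SE; edgeR adjusted p = 0.0526). DESeq2 gave an adjusted p of 0.00128, and the adjusted p ran from 0.00128 to 1 over 19 alternatives, with the difference between 0.45 and 0.63 in all of them.

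Ulk1, an autophagy kinase that mTORC1 inhibits, held 273, 257 and 257 CPM with vehicle and 225, 239 and 240.3 CPM with Δ9-THC in ESCs, and 38.3, 40.4 and 45.1 CPM against 53.4, 51.3 and 45.7 CPM in EpiLCs. Its difference was 0.46 ± 0.10 (edgeR adjusted p = 0.0894; DESeq2 adjusted p = 0.0168; from 0.0168 to 1 over the same 19 alternatives). Neither passed edgeR's test of the difference.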

How the results depend on the processing

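The 7 pathway genes past the threshold in ESCs were 7 without a filter or with at least 10 counts in every library, 8 with RLE factors (Atp6v0d1 added) and 6 with DESeq2. They were 0 with the replicate block, 0 with the offsets for GC content and length, 0 with both, 0 with all 12 libraries in 1 fit, and from 0 to 0 when each library was left out. In EpiLCs the 0 became 2 with DESeq2 (Lamp2 and Lpin1) and 3 with all 12 libraries in 1 fit (Ulk2 added), where 87 and 411 of all genes passed, and stayed 0 otherwise. The difference between cell types was 0 except for 2 by DESeq2. Over all genes, the ESC count was 906 in the main test, 5 with the replicate block, 0 with the offsets, 31 with all 12 libraries in 1 fit and from 0 to 1 when each library was left out.

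Same-numbered libraries are tied, as mirror images rather than as pairs that move together: deviations from the group means of same-numbered vehicle and Δ9-THC libraries correlated across genes at -0.99 to -0.98 in ESCs and EpiLCs, and differently numbered ones at 0.37 to 0.60 in ESCs and 0.22 to 0.70 in EpiLCs. The test without the block takes the libraries as independent, which these values do not show. The block left log2 fold changes in place and moved their errors, so that a call lost with it is not a smaller difference. With it the SE of Fnip1 in EpiLCs went from 0.053 to 0.15, and that of Tfeb in ESCs from 0.031 to 0.084. For Ddit4 in ESCs the SE went the other way, from 0.16 to 0.13. The cause of the mirrored deviations was not tested.

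Of 140 member log2 fold changes under alternatives in each cell type, 128 in ESCs and 134 in EpiLCs moved by at most 1 SE, and all others came with the GC and length offsets. Named pathway genes that changed sign were none of those past the threshold. In ESCs, the offsets without and with the block gave -0.030 and -0.029 for Rraga, 0.075 and 0.075 for Stk11 and 0.040 and 0.039 for Rps6; Rraga was -0.0097 with 12 libraries and -0.022 to 0.043 with each library left out. In EpiLCs, Seh1l was -0.041 and -0.040 with these offsets and -0.070 to 0.073 with each library left out, and Mitf -0.0036 with offsets and block and -0.15 to 0.22 with each library left out. The cause was not tested.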
